A study of Mus musculus with 24 samples.

Results

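The genes described here are 42 mouse genes that encode the machinery of mitosis, listed by name from the cyclin B kinase to the motors, kinetochores and enzymes that separate the chromosomes. They were picked out of 34885 genes that had at least 1 count in 24 RNA-seq libraries of Ocy454 cells, and all 42 were among the 16424 genes abundant enough to test. The libraries come from 8 groups of 3. At 2 h the groups were cells treated with 1,25-dihydroxyvitamin D (1,25D) alone, with lysophosphatidic acid (LPA) alone, with both agents, or with vehicle, and the same 4 groups were repeated at 8 h. The study asked how LPA and 1,25D act on synthesis of the bone hormone FGF23 and which signalling pathways they engage. Every group is the same cell line, with no difference in genotype. Ocy454 is a mouse osteocytic line that grows because it carries a temperature-sensitive SV40 large T antigen, a viral protein that binds p53 and the retinoblastoma family. LPA is a lipid that signals through G protein-coupled receptors, and 1,25D is the active vitamin D hormone, which acts through the nuclear receptor Vdr. The sources used here do not give doses, the vehicle or the culture temperature.

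Mitosis is driven by the kinase Cdk1 bound to a B-type or A-type cyclin. The Cdc25 phosphatases switch this kinase on, and Plk1 and Aurka drive spindle assembly beside it. At each centromere the kinetochore binds microtubules, and the spindle checkpoint holds the cell in metaphase until every chromosome is attached. The anaphase-promoting complex with Cdc20 then marks securin and the B cyclins for destruction, separase opens the sister chromatids, and the chromosomal passenger complex, kinesins and Ect2 complete division. The genes for these proteins are transcribed late in the cell cycle, in G2 and mitosis. In many mammalian cells this late transcription runs through a promoter element called the CHR, bound by the MuvB complex with B-MYB (Mybl2) and FOXM1, and through CCAAT boxes bound by NF-Y. The p53 target p21 (Cdkn1a) can shut the same genes off through the repressor form of MuvB, called DREAM. In bone, an osteocyte is a matrix-embedded cell that no longer divides, whereas the cultured line proliferates.

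Many of the members share promoter elements, which the choice of members did not use. RefSeq (assembly GRCm38.p6) gave a window of 250 bases before to 50 bases after the gene start for 34 of the 42 genes. Windows were searched on both strands for CCAAT and for the CHR. The CHR was taken as TTTGAA, or with C in the centre as TTCGAA, which reads the same on both strands. In the members, 1 CHR match overlapped a CCAAT match, in Cdca8. A gene with several windows counted if any of them held the element. A CHR was found for 27 of the 34 genes with a window (79.4%), against 21.7% of all 27025 genes with one. CCAAT was found for 26 of these members (76.5%), against 41.1% of all genes with a window, and both elements for 24 (70.6%), against 9.65%. Among 32 DNA replication genes with a window, which are transcribed earlier in the cycle, 18.8% held a CHR. A match is a string of letters and says nothing by itself about binding in these cells.

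The following windows run from 150 bases before to 50 bases after the gene start, 5′ to 3′ on the strand of the gene, with CHR and CCAAT matches in capitals. Plk1 (chr7:122159285-122159484, plus strand), Cdc20 (chr4:118437294-118437493, minus strand), Aurka (chr2:172370521-172370720, minus strand), Kif2c (chr4:117178723-117178922, minus strand) and Cdc25b (chr2:131186798-131186997, plus strand) are shown because they had some of the largest decreases at 2 h. Ccnb2 (chr9:70421505-70421704, minus strand) had the largest decrease of any member at 8 h. Top2a (chr11:99024140-99024339, minus strand) and Mad2l1 (chr6:66535071-66535270, plus strand) are shown because they were not called in any comparison with vehicle. The Mad2l1 window holds neither element.
Plk1: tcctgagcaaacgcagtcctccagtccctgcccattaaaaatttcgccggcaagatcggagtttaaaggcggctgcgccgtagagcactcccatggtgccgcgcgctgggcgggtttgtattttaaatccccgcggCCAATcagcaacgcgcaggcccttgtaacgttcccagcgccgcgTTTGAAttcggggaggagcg
Cdc20: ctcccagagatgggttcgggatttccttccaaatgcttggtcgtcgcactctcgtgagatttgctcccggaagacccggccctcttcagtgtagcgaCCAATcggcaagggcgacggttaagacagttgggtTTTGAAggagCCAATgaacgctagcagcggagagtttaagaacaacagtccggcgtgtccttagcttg
Aurka: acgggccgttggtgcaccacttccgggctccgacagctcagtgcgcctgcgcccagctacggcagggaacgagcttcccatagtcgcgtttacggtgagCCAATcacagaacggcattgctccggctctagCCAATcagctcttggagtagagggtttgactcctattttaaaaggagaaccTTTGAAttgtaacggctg
Kif2c: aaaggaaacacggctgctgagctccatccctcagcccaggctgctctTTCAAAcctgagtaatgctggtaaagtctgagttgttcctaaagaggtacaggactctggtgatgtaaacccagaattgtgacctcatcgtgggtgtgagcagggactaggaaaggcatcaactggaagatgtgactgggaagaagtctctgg
Cdc25b: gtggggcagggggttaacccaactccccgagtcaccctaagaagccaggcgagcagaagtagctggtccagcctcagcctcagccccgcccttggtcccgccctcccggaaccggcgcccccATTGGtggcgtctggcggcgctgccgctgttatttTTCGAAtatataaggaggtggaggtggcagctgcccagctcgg
Ccnb2: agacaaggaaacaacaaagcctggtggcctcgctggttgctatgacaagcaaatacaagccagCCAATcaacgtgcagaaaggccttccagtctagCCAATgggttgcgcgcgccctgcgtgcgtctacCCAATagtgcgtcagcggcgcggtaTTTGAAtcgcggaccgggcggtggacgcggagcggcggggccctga
Top2a: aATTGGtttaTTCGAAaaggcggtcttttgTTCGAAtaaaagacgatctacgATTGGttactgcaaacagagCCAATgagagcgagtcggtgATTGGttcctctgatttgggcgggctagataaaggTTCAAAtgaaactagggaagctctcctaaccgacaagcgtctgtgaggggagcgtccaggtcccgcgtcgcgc
Mad2l1: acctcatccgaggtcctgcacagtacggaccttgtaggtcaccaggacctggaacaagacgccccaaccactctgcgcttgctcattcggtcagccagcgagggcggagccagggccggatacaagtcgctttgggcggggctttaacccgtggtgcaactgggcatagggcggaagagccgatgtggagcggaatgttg

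Among the 20 members called lower at 2 h with 1,25D-labelled treatment or both agents, 14 had a window and 13 of those held a CHR (92.9%). Among the other 22 members, 20 had a window and 14 of those held one. Both shares are above the 21.7% of all genes with a window, and the difference between them was not tested. Kif2c held a CHR and no CCAAT. Top2a, which was not called, held more matches than any of the others shown.

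Libraries were deep and even. Each library held 32.96 to 33.84 M estimated counts, and the 42 genes together took 0.508 to 0.727% of the counts. No member had fewer than 646 counts in any library, so counting error was small beside the spread between libraries. The labels do not say whether replicate libraries stem from separate cultures, and p-values then reflect only the spread between these libraries, which may be technical. At 8 h, vehicle replicate 2 and both-agents replicate 2 stood apart from their own groups, with scores of 41.3 and 35.1 on the first component of within-group deviations. The mitochondrial share of counts was 9.01 to 16.9%, and 8 h vehicle replicate 2 was the highest. At 8 h, counts of called members with and without that pair are given beside the result.

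The labels of the single treatments need care. Cyp24a1, the enzyme that degrades vitamin D and the best-known target of its receptor, had 1 count over the 3 libraries labelled 1,25D at 8 h, 102 over the 3 labelled LPA, 87 over those with both agents and 1 in vehicle. At 8 h Vdr had 7278 counts over the libraries labelled 1,25D, 26372 over those labelled LPA, 21729 with both agents and 12801 in vehicle. For both genes the libraries labelled LPA, and not those labelled 1,25D, were on the same side of vehicle as both agents. The names of the deposited tables also carry the single-treatment letters the other way round from the sample titles. Libraries called labelled 1,25D here carry L in those names, and libraries called labelled LPA carry D. Each statement below on a single treatment therefore holds for the label and assigns no change to an agent. A lower level with the label 1,25D is not shown to be an effect of 1,25D. The groups with both agents and with vehicle carry no such conflict. Of the osteocyte markers, Dmp1 was at 0.859 to 1.65 TPM over the group means, while Sost, Mepe, Fgf23 and Dkk1 were at or near 0. Pdpn was at 40.2 to 68.2 TPM and Col1a1 at 503.1 to 1068 TPM. Of 25 markers of fat, cartilage, macrophages and blood, endothelium and skeletal muscle, 10 passed the filter on low counts. Their summed level per library was 0.0127 to 0.975 TPM for fat, 0.0265 to 1.08 TPM for cartilage, 0.544 to 1.69 TPM for endothelium, 1.93 to 4.31 TPM for muscle and 11.2 to 19.4 TPM for macrophages and blood. Nearly all of the last was Cd68, a lysosomal protein gene, at 12.1 to 17.4 TPM over the group means, while the other 24 markers reached at most the 3.05 TPM of Acta1. The defining Adipoq, Col2a1, Ptprc, Kdr and Myod1 were at or near 0. In comparisons with vehicle and in vehicle over time, Cd68 was lower (log2 -0.36) and Csf1r higher (1.56) in vehicle at 8 h than at 2 h, Des was lower (-1.09) in libraries labelled 1,25D at 8 h, and no other of the 25 was called. Their part in the results was not tested.

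Levels of different genes can be compared in TPM, a transcript abundance scaled for length and depth. Ube2c, the E2 enzyme of the anaphase-promoting complex, was highest at 325.4 TPM over the 24 libraries, followed by Cdca3 at 282 TPM, the securin Pttg1 at 207 TPM, cyclin A2 (Ccna2) at 191 TPM and Cdk1 at 179 TPM. Plk1 was in the middle at 64.2 TPM. The separase Espl1 was lowest at 13.8 TPM, and the checkpoint kinase Ttk was next at 16.4 TPM. The ratio of the highest to the lowest of the 8 group means was 2.54 for Espl1, 2.079 for Plk1 and 1.97 for Kif2c, against 1.10 for the actin-ring scaffold Anln. The Espl1 ratio rests on libraries that disagreed within groups. At 8 h its CPM was 46.8, 28.1 and 50.1 with both agents and 44.9, 24.7 and 53.4 in vehicle, and replicate 2 was low in both groups.

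Summed over the 42 genes, the level was lower in the libraries labelled 1,25D and in those with both agents than in vehicle at both times. At 2 h the sum was 3186 ± 43.2 TPM in libraries labelled 1,25D, 3623 ± 52.8 TPM in libraries labelled LPA, 3123 ± 66.1 TPM with both agents and 3816 ± 12.0 TPM in vehicle (SD, n = 3 each). In TPM the treated groups did not overlap with vehicle at 2 h, whose libraries ran from 3808 to 3830 TPM. At 8 h the sum was 3614 ± 103 TPM in libraries labelled 1,25D, 3902 ± 138 TPM in libraries labelled LPA, 3555 ± 43.6 TPM with both agents and 4080 ± 301 TPM in vehicle (SD, n = 3 each). Vehicle ran from 3784 to 4385 TPM at 8 h. On this scale the libraries labelled LPA, at 3753 to 4024 TPM, overlapped with it, and the others did not. With mitochondrial genes taken out of the TPM scale, both overlap results for the label LPA were reversed. At 2 h its libraries, at 4422 to 4600 TPM, overlapped with vehicle, at 4526 to 4773 TPM. At 8 h they lay below vehicle, at 5029 to 5092 TPM against 5184 to 5245 TPM. The other treated groups lay below vehicle at both times on that scale. In bulk RNA, fewer cells in mitosis and less of each mRNA per cell cannot be told apart.

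Relative to vehicle, the summed TPM was 83.5% in libraries labelled 1,25D, 94.9% in libraries labelled LPA and 81.8% with both agents at 2 h. At 8 h it was 88.6% in libraries labelled 1,25D, 95.6% in libraries labelled LPA and 87.1% with both agents. The same sum in CPM (counts relative to library sizes scaled by edgeR's TMM factors) was 87.4% in libraries labelled 1,25D, 102% in libraries labelled LPA and 87.8% with both agents at 2 h. At 2 h the libraries labelled LPA were therefore below vehicle on one scale and above it on the other. Their CPM sums, 6044 to 6369, overlapped with the 5729 to 6365 of vehicle. Which groups were apart from vehicle at 8 h also depended on the scale. In CPM the libraries labelled LPA, at 6214 to 6695, lay below vehicle, at 6826 to 7457. Those with both agents, at 6124 to 7064, overlapped with it. The 40 DNA replication genes summed to 94.0% of vehicle in libraries labelled 1,25D, 98.9% in libraries labelled LPA and 94.9% with both agents in TPM at 2 h. At 8 h with the label 1,25D they summed to 92.3% in TPM and 88.5% in CPM. The mitosis genes there were at 88.6% and 87.9%. With the label LPA the DNA replication sums at 8 h were 101% in TPM and 94.4% in CPM, and with both agents 94.6% and 97.7%.

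**Figure D1:**
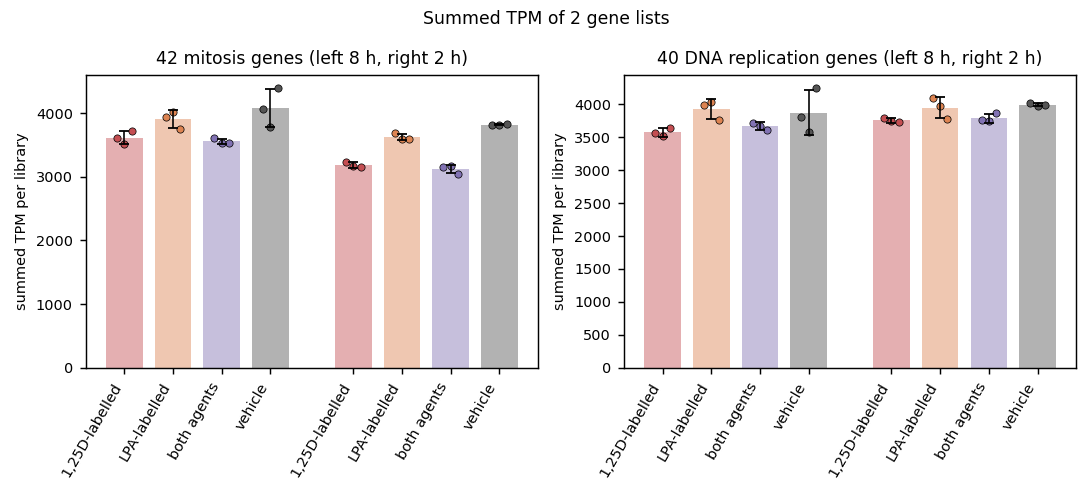
Summed TPM per library for the 42 mitosis genes (left panel) and 40 DNA replication genes (right panel), with 8 h groups on the left of each panel and 2 h groups on the right; bars are means, points libraries and whiskers SD (n = 3). At 2 h the mitosis sum was 3186 ± 43.2 TPM in libraries labelled 1,25D and 3123 ± 66.1 TPM with both agents, below the 3816 ± 12.0 TPM of vehicle.

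At 2 h, libraries labelled 1,25D had lower mRNA for a large part of the mitotic machinery. Of the 42 members, 19 were called lower by edgeR's quasi-likelihood test at an adjusted p under 0.05 and 0 were called higher, where 6.85% of all tested genes were called lower and 7.06% higher. The median log2 fold change of the members was -0.21, against -0.00 over all tested genes, and 39 of 42 were negative. The 3 positive values belonged to Foxm1, Mad2l1 and Anln, and none was called. In 23 members all 3 libraries labelled 1,25D were below all 3 vehicle libraries, which held for 15.4% of all tested genes.

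Plk1, the kinase that drives spindle pole maturation and mitotic entry, fell furthest. It had 77.4, 88.7 and 85.1 CPM in libraries labelled 1,25D and 136, 127 and 135 CPM in vehicle. The groups were well apart. The log2 fold change was -0.66 ± 0.07 (SE), so Plk1 fell by 36.9% (adjusted p = 3.99e-07).

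Cdc25b, the phosphatase that starts Cdk1 activation at the G2 to M step, had 39.7, 34.4 and 38.0 CPM in libraries labelled 1,25D and 60.2, 52.7 and 53.7 CPM in vehicle, without overlap. It fell by 32.7% (log2 -0.57 ± 0.08, adjusted p = 2.35e-05). Kif2c, a microtubule-depolymerising kinesin at centromeres, had 74.4, 75.6 and 79.6 CPM in libraries labelled 1,25D and 104, 111 and 115 CPM in vehicle. Every vehicle library was above every treated one, and Kif2c fell by 30.5% (log2 -0.53 ± 0.08, adjusted p = 6.95e-05). Cdc20, which activates the anaphase-promoting complex, had 155, 138 and 161 CPM in libraries labelled 1,25D and 213, 207 and 207 CPM in vehicle. The vehicle libraries lay close together and above the treated ones, and Cdc20 fell by 27.6% (log2 -0.47 ± 0.07, adjusted p = 7.36e-05).

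The members called at 2 h with the label 1,25D came from 8 of the 9 roles, all but chromosome structure. Among the cyclins and activators, Cdc25c, a second activating phosphatase of Cdk1, changed by -0.35, adjusted p = 0.00312 on the log2 scale, and cyclin A2 by -0.25, adjusted p = 0.0168. Among the spindle kinases and their partners, Aurka, which matures the spindle poles, changed by -0.43, adjusted p = 0.00356, and the spindle-assembly protein Dlgap5 by -0.31, adjusted p = 0.0174. In the checkpoint, Bub1b changed by -0.32, adjusted p = 0.00456 and Ttk, the kinase that starts the signal, by -0.32, adjusted p = 0.0117. In the passenger complex, the kinase Aurkb changed by -0.36, adjusted p = 0.00348 and its scaffold Incenp by -0.28, adjusted p = 0.000464. Ndc80, the kinetochore protein that grips microtubules, changed by -0.40, adjusted p = 0.0119, and the cytokinetic kinesin Kif20a by -0.35, adjusted p = 0.00504. All of these were lower in each library labelled 1,25D than in each vehicle library. The rest of the 19 were Cenpf, Ect2, Ccnb1, Cenpa and Cdca8, with log2 changes of -0.38 to -0.20, and Cenpf alone of the 19 had libraries that overlapped.

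Cyclin B1, Top2a and Mki67, often used as markers of proliferation, had smaller values. Cyclin B1 (Ccnb1) had 128, 111 and 117 CPM in libraries labelled 1,25D and 135, 136 and 152 CPM in vehicle, close to each other but not overlapping, and was just past the threshold (log2 -0.25 ± 0.08, adjusted p = 0.0398). Top2a, the topoisomerase that untangles sister chromatids, had 475, 458 and 423 CPM in libraries labelled 1,25D and 428, 528 and 538 CPM in vehicle. Vehicle replicate 1 lay among the treated libraries (log2 -0.14 ± 0.08, adjusted p = 0.311). Mki67, which coats mitotic chromosomes and encodes the Ki-67 antigen, had 343, 372 and 302 CPM in libraries labelled 1,25D and 297, 443 and 433 CPM in vehicle, where vehicle replicate 1 was the lowest of the 6 libraries (log2 -0.21 ± 0.11, adjusted p = 0.243).

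By role, 4 of 7 cyclins, Cdk1 and activators were called lower with the label 1,25D at 2 h (median log2 -0.25), 3 of 6 spindle kinases and partners (-0.27), 3 of 4 passenger proteins (-0.24) and 3 of 5 centromere and kinetochore genes (-0.21). Fewer were called among the 5 checkpoint genes (2, median -0.06) and the 5 partners and substrates of the anaphase ligase (1, median -0.11). The count of 19 was 12 without 2 h vehicle replicate 2 and 11 without vehicle replicate 3. Plk1, Cdc25b, Kif2c, Cdc20, Cdc25c, Aurka, Aurkb, Bub1b, Kif20a and Incenp were called with any single library of the compared groups left out. Ccna2 lost its call without vehicle replicate 3 or 1,25D-labelled replicate 1, Ttk without vehicle replicate 3 or 1,25D-labelled replicate 2, Dlgap5 without vehicle replicate 2 or 3 or 1,25D-labelled replicate 1, and Ndc80 without vehicle replicate 2 or 3 or 1,25D-labelled replicate 3. Ccnb1, Cenpf and Ect2 lost theirs without vehicle replicate 2 or 3 or 1,25D-labelled replicate 2 or 3, Cenpa without vehicle replicate 1 or 2 or 1,25D-labelled replicate 2 or 3, and Cdca8 without any 1 of the 6.

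With both agents at 2 h, mitosis genes were again lower than in vehicle, led by Plk1 and the passenger complex gene Incenp. Of the 42 members, 15 were called lower and 0 higher, where 19.9% of all tested genes were called in either direction, 1644 of them lower and 1623 higher. The median log2 fold change was -0.20, against 0.00 over all tested genes, and 37 of 42 values were negative. The 5 positive values were those of Bub1, Mad2l1, Nuf2, Kif4 and Anln, and none was called.

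Plk1 had 78.1, 65.9 and 67.3 CPM with both agents and 136, 127 and 135 CPM in vehicle, the largest log2 change of any member in any treatment. It fell by 46.9% (log2 -0.91 ± 0.07, adjusted p = 2.19e-09). Incenp had 125, 112 and 121 CPM with both agents and 161, 164 and 171 CPM in vehicle. The groups did not overlap and Incenp fell by 28.1% (log2 -0.48 ± 0.05, adjusted p = 5.39e-07). Cdc20 had 136, 147 and 139 CPM with both agents and 213, 207 and 207 CPM in vehicle, without overlap, and fell by 32.7% (log2 -0.57 ± 0.07, adjusted p = 3.69e-06). Cdc25b had 39.4, 32.7 and 35.8 CPM with both agents and 60.2, 52.7 and 53.7 CPM in vehicle, also without overlap, and fell by 35.2% (log2 -0.63 ± 0.08, adjusted p = 4.71e-06).

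Kif2c changed by -0.61, adjusted p = 7.26e-06 with both agents at 2 h on the log2 scale, Aurka by -0.51, adjusted p = 0.000531, Aurkb by -0.42, adjusted p = 0.000652 and Kif20a by -0.40, adjusted p = 0.0011. The borealin gene Cdca8, a passenger complex member, changed by -0.32, adjusted p = 0.00174, Cdc25c by -0.32, adjusted p = 0.00503 and Ccna2 by -0.27, adjusted p = 0.00653. Bub1b changed by -0.27, adjusted p = 0.0109, Ube2c by -0.19, adjusted p = 0.0224 and Dlgap5 by -0.27, adjusted p = 0.0266. Ect2, the exchange factor that places the cleavage furrow, was the last of the 15. Aurka had 86.0, 99.0 and 97.0 CPM with both agents and 133, 134 and 134 CPM in vehicle. The 3 vehicle values of this gene were almost equal and all above the treated ones. Of the passenger complex, 3 of 4 genes were called (median log2 -0.37), while 0 of 5 centromere and kinetochore genes were (median -0.19).

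Ccnb1 had 121.5, 119 and 122.5 CPM with both agents and 135, 136 and 152 CPM in vehicle, and missed the threshold at 2 h (log2 -0.22 ± 0.08, adjusted p = 0.0614). Top2a had 478, 510.3 and 481 CPM with both agents and 428, 528 and 538 CPM in vehicle, overlapping (log2 -0.02). Mki67 had 349.7, 371 and 326 CPM with both agents and 297, 443 and 433 CPM in vehicle, overlapping as well (log2 -0.16). Leaving out 1 library gave 12 to 20 called members, and 11 of the 15 were called in every such fit. Bub1b lost its call without vehicle replicate 3, Dlgap5 and Ect2 without vehicle replicate 2 or 3 or both-agents replicate 1 or 2, and Ube2c without vehicle replicate 2 or 3 or both-agents replicate 2 or 3.

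**Figure D2:**
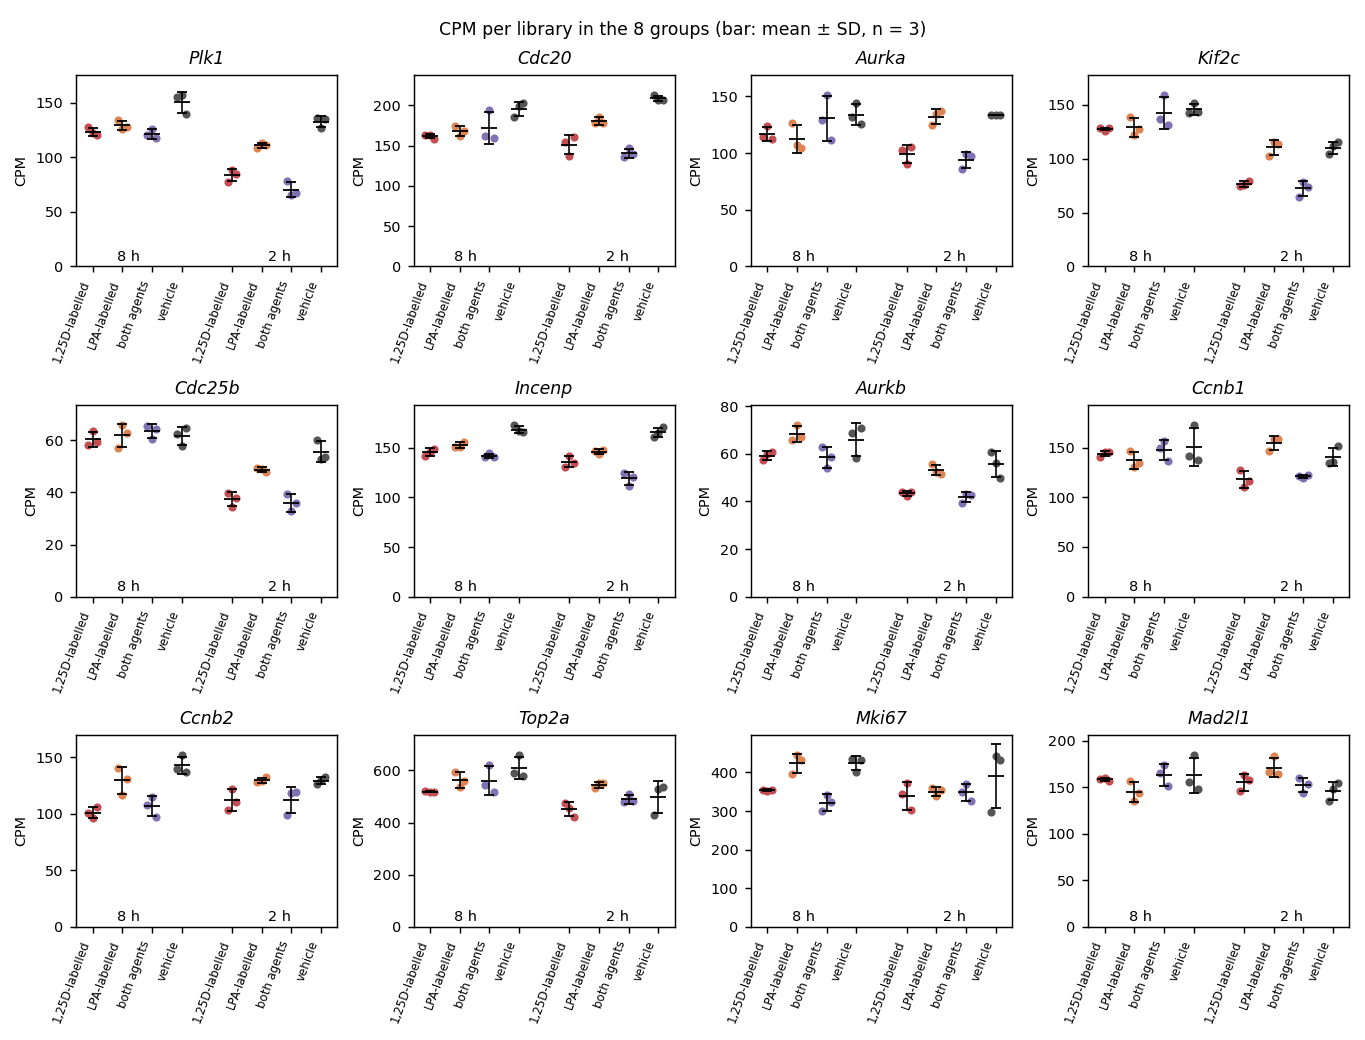
CPM of 12 mitosis genes in each of the 24 libraries, with the 8 h groups on the left of each panel and the 2 h groups on the right; points are libraries and bars mean ± SD (n = 3). At 2 h Plk1 averaged 83.7 ± 5.8 CPM in libraries labelled 1,25D and 70.4 ± 6.7 CPM with both agents, against 133 ± 5.1 CPM in vehicle, while Mad2l1 had no call against vehicle.

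In libraries labelled LPA at 2 h, no member was called in either direction by edgeR's quasi-likelihood test, where 0.189% of all tested genes were called lower and 0.597% higher. At an unadjusted p under 0.05 there were 8, where 13.7% of all tested genes were past that level, and DESeq2 called 2. The median log2 fold change was 0.05, against 0.00 over all tested genes, with 11 values negative and 31 positive. The 4 lower members at the unadjusted level were Plk1 (-0.26), Cdc20 (-0.21), Cdc25b (-0.19) and Incenp (-0.18). The 4 higher ones were the spindle protein Nusap1 (0.27), the checkpoint protein Mad2l1 (0.23), the kinetochore protein Nuf2 (0.22) and Ttk (0.17).

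Plk1 had 109, 113 and 111 CPM in libraries labelled LPA and 136, 127 and 135 CPM in vehicle, so all of the treated libraries lay below vehicle even though the call was not made (log2 -0.26 ± 0.07, adjusted p = 0.0852). Cdc20 had 179, 186 and 178 CPM in libraries labelled LPA and 213, 207 and 207 CPM in vehicle, also without overlap (adjusted p = 0.192). Ccnb1 had 147, 159 and 158 CPM in libraries labelled LPA and 135, 136 and 152 CPM in vehicle, with overlapping groups. Top2a had 533, 552 and 552 CPM in libraries labelled LPA and 428, 528 and 538 CPM in vehicle. Mki67 had 359, 338 and 354 CPM in libraries labelled LPA and 297, 443 and 433 CPM in vehicle, and neither gene separated the groups.

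Set against the libraries labelled LPA, the libraries with both agents had more called members than in any other comparison. At 2 h there were 22 members lower and 0 higher, where 9.48% of all tested genes were lower and 9.22% higher, with a member median of -0.25, against -0.01 over all tested genes. Plk1 (log2 -0.66, adjusted p = 4.59e-07), Kif2c (-0.61, adjusted p = 7.86e-06), Nusap1 (-0.48, adjusted p = 0.000495) and Kif20a (-0.46, adjusted p = 0.000386) had large changes. This comparison shares no library with the libraries labelled 1,25D against vehicle, and 18 genes were called in both, which is 94.7% of the 19 and 81.8% of the 22. Both comparisons came from the same fit, with a shared estimate of the spread. The same overlap over all tested genes was not computed. Leaving out 1 library gave 16 to 22.

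Against the libraries labelled 1,25D at 2 h, both agents gave no called member by edgeR's quasi-likelihood test, where 0.158% of all tested genes were lower and 0.609% higher. There were 3 members at an unadjusted p under 0.05, against 8.95% of all tested genes, and DESeq2 called 1. The median was 0.02. Plk1 was lower still with both agents, at 78.1, 65.9 and 67.3 CPM against 77.4, 88.7 and 85.1 CPM in libraries labelled 1,25D, a log2 difference of -0.25 ± 0.07 with a 95% interval of -0.39 to -0.11 that misses the threshold after adjustment (adjusted p = 0.126). The interaction of the agents at 2 h, which is the change with both minus the sum of the single changes, was called for no member by edgeR's quasi-likelihood test or by DESeq2. At an unadjusted p under 0.05 there was 1, against 4.35% of all tested genes, and 0.0122% of all tested genes had a negative and 0.0244% a positive interaction.

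**Figure D3:**
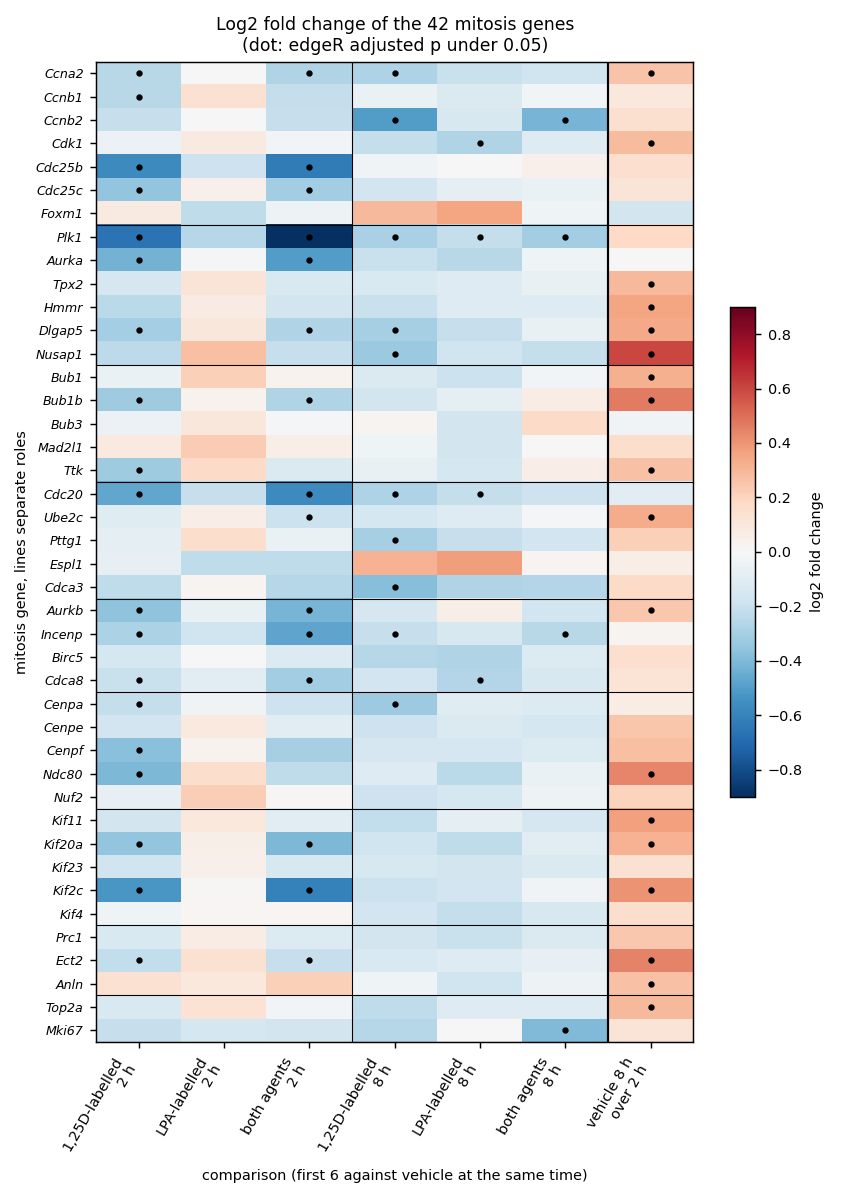
Log2 fold change of each of the 42 mitosis genes, one per row and grouped by role, in 6 comparisons with vehicle and in vehicle at 8 h over 2 h; blue is lower, red is higher, and a dot marks an adjusted p under 0.05. Dots number 19, 0 and 15 in the 2 h columns, 10, 4 and 4 in the 8 h columns and 18 in the last.

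At 8 h, fewer members were called than at 2 h in libraries labelled 1,25D and with both agents. In libraries labelled 1,25D, 10 members were called lower and 0 higher, where 8.32% of all tested genes were called lower and 7.89% higher. The median log2 change was -0.18, against 0.00 over all tested genes, and 39 of 42 values were negative. Cyclin B2 (Ccnb2), a partner of Cdk1, had the largest change, and was not called at 2 h (log2 -0.21, adjusted p = 0.103).

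Ccnb2 had 101, 96.2 and 106 CPM in libraries labelled 1,25D at 8 h and 139.7, 152 and 137 CPM in vehicle. The groups were far apart, and Ccnb2 fell by 29.4% (log2 -0.50 ± 0.08, adjusted p = 0.000253). Cenpa, the histone variant that marks centromeres, had 61.1, 63.4 and 63.5 CPM in libraries labelled 1,25D and 79.6, 80.1 and 75.8 CPM in vehicle, with no overlap, and fell by 20.2% (adjusted p = 0.00236). Plk1 had 128, 122 and 120.1 CPM in libraries labelled 1,25D and 155, 157 and 139.6 CPM in vehicle. It was still below vehicle in every library and fell by 18.1% (log2 -0.29 ± 0.07, adjusted p = 0.00577). Cdca3, which helps the cell enter mitosis by directing Wee1 to destruction, had 208, 189 and 206 CPM in libraries labelled 1,25D and 255, 297 and 236 CPM in vehicle, and fell by 23.4% (adjusted p = 0.00672).

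The other 6 were Incenp (log2 -0.21, adjusted p = 0.00724), Ccna2 (-0.28, adjusted p = 0.00749), Cdc20 (-0.28, adjusted p = 0.01), Nusap1 (-0.33, adjusted p = 0.0131), Pttg1 (-0.30, adjusted p = 0.0163) and Dlgap5 (-0.30, adjusted p = 0.0211). Cdc20 had 163, 164 and 159 CPM in libraries labelled 1,25D and 186, 199 and 203 CPM in vehicle at 8 h, without overlap. Ccnb1 had 141, 145 and 146 CPM in libraries labelled 1,25D and 141, 173 and 138 CPM in vehicle, where replicate 2 alone was high (log2 -0.06). Top2a had 520.0, 519 and 518 CPM in libraries labelled 1,25D and 591, 657 and 579 CPM in vehicle, lower in all 3 but past no threshold (log2 -0.23 ± 0.08, adjusted p = 0.0575). Mki67 had 356, 352 and 356 CPM in libraries labelled 1,25D and 436, 402 and 433 CPM in vehicle (log2 -0.26 ± 0.11, adjusted p = 0.107). Without 1 library the count was 7 to 15, and without the pair of 8 h libraries that stood apart it was 8. Dlgap5 lost its call without vehicle replicate 2 or 1,25D-labelled replicate 1 or 3, Nusap1 without vehicle replicate 2 or 1,25D-labelled replicate 2, and Pttg1 without vehicle replicate 2 or 1,25D-labelled replicate 2 or 3.

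In libraries labelled LPA at 8 h, 4 members were called lower and 0 higher, where 5.38% of all tested genes were called lower and 6.62% higher, and the member median was -0.16, against 0.00 over all tested genes. The share of members called was not far from that of all genes. Cdca8 had 117, 106 and 108 CPM in libraries labelled LPA and 128, 136 and 134 CPM in vehicle (log2 -0.26 ± 0.07, adjusted p = 0.0132). Cdk1, the mitotic kinase itself, had 141, 128 and 135 CPM in libraries labelled LPA and 153, 183 and 151 CPM in vehicle (log2 -0.27 ± 0.08, adjusted p = 0.0395). Both genes were lower in each library labelled LPA than in each vehicle library.

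Plk1 had 134, 126 and 128 CPM in libraries labelled LPA at 8 h and 155, 157 and 139.6 CPM in vehicle (log2 -0.22 ± 0.07, adjusted p = 0.0403). Cdc20 had 175, 162 and 169 CPM in libraries labelled LPA and 186, 199 and 203 CPM in vehicle (log2 -0.22 ± 0.07, adjusted p = 0.0487). The gaps between the groups were narrow. None of the 4 calls held in every fit with 1 library left out: the count was 1 without vehicle replicate 2, 8 without vehicle replicate 3, 15 without LPA-labelled replicate 1 and 0 without replicate 2 or 3 of that group, and 1 without the pair that stood apart. Plk1 also lost its call without vehicle replicate 1, and with no filter on low counts 2 members were called higher and 0 lower. Ccnb1 had 147, 131 and 134 CPM, Top2a 594, 536 and 559 CPM and Mki67 396, 444 and 432 CPM in libraries labelled LPA, with log2 changes from vehicle of -0.13, -0.11 and 0.00, none of them called.

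With both agents at 8 h, 4 members were called lower and 0 higher, where 7.25% of all tested genes were called lower and 9.54% higher, and the median was -0.12, against 0.03 over all tested genes. The share called was near the background. Ccnb2 had 108, 115 and 97.1 CPM with both agents and 139.7, 152 and 137 CPM in vehicle, and fell by 25.3% (log2 -0.42 ± 0.08, adjusted p = 0.00085). Incenp had 140.2, 144 and 141 CPM with both agents and 173, 167 and 166 CPM in vehicle, and fell by 15.7% (adjusted p = 0.00134). Neither gene overlapped between the groups.

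Plk1 had 121, 126 and 117 CPM with both agents at 8 h and 155, 157 and 139.6 CPM in vehicle, and fell by 19.4% (log2 -0.31 ± 0.07, adjusted p = 0.00216). Mki67 had 299.6, 342 and 323 CPM with both agents and 436, 402 and 433 CPM in vehicle, and fell by 24.1% (log2 -0.40 ± 0.11, adjusted p = 0.012). All treated libraries were below vehicle in both genes, but the Mki67 call was lost without both-agents replicate 1. Cdc20 had 162, 194 and 159.5 CPM, Ccnb1 149, 157 and 137 CPM and Top2a 543, 622 and 518.5 CPM with both agents. Replicate 2 was the highest in each of these, and it is one of the pair that stood apart. The count of 4 was 10 without both-agents replicate 2 and 5 without the pair.

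Direct comparisons between treatments at 8 h gave few called members. Both agents against the libraries labelled 1,25D gave no called member by edgeR's quasi-likelihood test, 4 at an unadjusted p under 0.05 (24.2% of all tested genes) and 1 by DESeq2, where 3.43% of all tested genes were lower and 5.74% higher. Against the libraries labelled LPA, Bub3, a checkpoint protein, was higher with both agents (log2 0.33 ± 0.08, adjusted p = 0.00676), while Mki67 (-0.40), Ccnb2 (-0.28) and Aurkb (-0.22) were lower, where 8.91% of all tested genes were lower and 14.0% higher. Those 4 calls became 1 without LPA-labelled replicate 2 and 2 without LPA-labelled replicate 3 or both-agents replicate 1 or 2, and each was lost in at least 1 such fit. The interaction at 8 h was called for 1 member, Dlgap5 (log2 0.43 ± 0.12, adjusted p = 0.0424), where 4.06% of all tested genes had a positive and 3.62% a negative interaction. At an unadjusted p under 0.05, 19 members had a positive and 2 a negative interaction, where 17.8% of all tested genes had a positive one. The member median of the interaction was 0.24, against 0.04 over all tested genes. That 1 call became 14 by DESeq2, 16 without vehicle replicate 3, 19 without LPA-labelled replicate 1, 19 without both-agents replicate 3 and 0 without the pair that stood apart. It became 0 without any 1 of vehicle replicate 2, the 3 libraries labelled 1,25D, LPA-labelled replicate 2 or 3, or both-agents replicate 1 or 2.

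Changes against vehicle shrank between the early and the later time for a small set of genes, by the test of the difference of the changes. With both agents, 7 members had a higher log2 change at 8 h than at 2 h and none a lower one, where 5.57% of all tested genes had a higher and 4.11% a lower change. Cdc25b had a log2 change of 0.04 at 8 h and -0.63 at 2 h, a difference of 0.67 ± 0.11 (adjusted p = 0.000311). Plk1 had -0.31 at 8 h and -0.91 at 2 h, a difference of 0.60 ± 0.10 (adjusted p = 0.000226). Kif2c had -0.03 at 8 h and -0.61 at 2 h, a difference of 0.57 ± 0.11 (adjusted p = 0.00161). These 3 were called with any library left out and under every other setting tried.

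Cdc25b makes the pattern plain in CPM. It had 65.6, 60.7 and 64.4 CPM with both agents and 62.4, 57.8 and 64.6 CPM in vehicle at 8 h, where the groups overlap, and the 2 h libraries given above do not. The other 4 called differences were Cdc20 (log2 0.38 ± 0.10), Aurka (0.47 ± 0.13), Bub1b (0.34 ± 0.10) and Incenp (0.23 ± 0.07), with adjusted p of 0.0154, 0.029, 0.042 and 0.0484. Over all 42 members the median difference was 0.08, against 0.03 over all tested genes. Cdc20 lost its call without 8 h vehicle replicate 1 alone, and Aurka, Bub1b and Incenp lost theirs in 8 or more fits with 1 library left out. The count of 7 was 4 without 2 h vehicle replicate 2 or 3, without 8 h vehicle replicate 3 or without both-agents replicate 1 at 8 h, 3 without 8 h vehicle replicate 1 and 4 without the pair that stood apart.

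For the libraries labelled 1,25D, Cdc25b (0.54 ± 0.11, adjusted p = 0.00506) and Plk1 (0.37 ± 0.10, adjusted p = 0.0269) had higher log2 changes at 8 h than at 2 h, where 1.33% of all tested genes had a higher and 2.84% a lower change. The median difference was 0.02 over the members and over all tested genes. Plk1 lost this call in 6 of the fits with 1 library left out, namely without 2 h vehicle replicate 1 or 3, 1,25D-labelled replicate 1 at 2 h, 8 h vehicle replicate 3, or 1,25D-labelled replicate 1 or 2 at 8 h. For the libraries labelled LPA, Nusap1 (-0.45 ± 0.12, adjusted p = 0.0344) and Mad2l1 (-0.40 ± 0.11, adjusted p = 0.0416) had lower changes at 8 h than at 2 h, where 6.76% of all tested genes had a called difference, 493 of them lower and 617 higher. Here the member median was -0.23, against 0.00 over all tested genes, and 22 members were lower at an unadjusted p under 0.05, where 14.6% of all tested genes were. The count of 2 was 0 without 2 h vehicle replicate 1, without LPA-labelled replicate 2 or 3 at either time or without 8 h vehicle replicate 2, 1 without 2 h vehicle replicate 2, 12 without 8 h vehicle replicate 3, 11 without LPA-labelled replicate 1 at 8 h and 1 without the pair that stood apart.

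**Figure D4:**
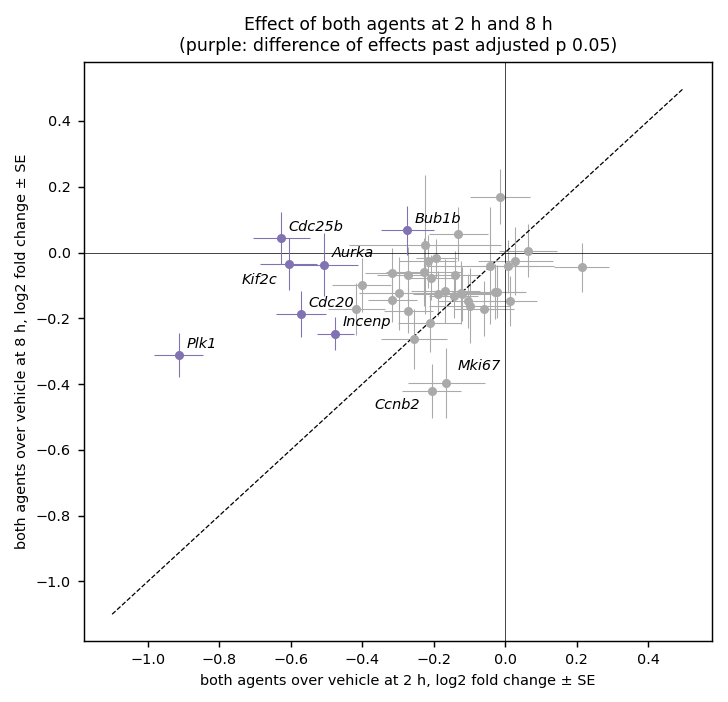
Log2 fold change with both agents over vehicle at 8 h (vertical axis) against that at 2 h (horizontal axis) for the 42 mitosis genes, with SE as whiskers and a dashed line of equal change; purple points passed the test of the difference. The 7 purple genes lie above the line, with Plk1 at -0.31 at 8 h and -0.91 at 2 h.

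Vehicle itself moved between the times. In vehicle at 8 h, 18 members were called higher and 0 lower than in vehicle at 2 h, where 5.88% of all tested genes were called higher and 8.69% lower. The median log2 change was 0.23, against -0.02 over all tested genes, and 39 of 42 were positive. The negative ones were Foxm1, Bub3 and Cdc20. In 28 members all 3 libraries at 8 h were above all 3 at 2 h, which held for 14.6% of all tested genes.

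Nusap1, which bundles spindle microtubules, had 173, 189 and 161 CPM at 8 h and 101, 121 and 124 CPM at 2 h in vehicle (log2 0.60 ± 0.09, adjusted p = 7.28e-05). Ect2 had 139, 143 and 126 CPM at 8 h and 95.1, 99.8 and 104 CPM at 2 h (log2 0.45 ± 0.07, adjusted p = 0.0001). Every 8 h library was above every 2 h library in both genes. Bub1b had 109, 115 and 113 CPM at 8 h and 72.4, 83.1 and 88.7 CPM at 2 h (log2 0.47 ± 0.07, adjusted p = 0.000167). Ube2c had 274, 271 and 256 CPM at 8 h and 204, 217 and 214 CPM at 2 h (log2 0.33 ± 0.06, adjusted p = 0.000423). The 8 h libraries were again the higher in each.

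The next members in vehicle were Kif2c (log2 0.40, adjusted p = 0.00121), the spindle motor Kif11 (0.37, adjusted p = 0.00384), Ndc80 (0.44, adjusted p = 0.00621), Dlgap5 (0.34, adjusted p = 0.00836) and Tpx2 (0.29, adjusted p = 0.00868), which activates Aurka. Kif20a (0.31, adjusted p = 0.0127), Ccna2 (0.26, adjusted p = 0.0132), the spindle protein Hmmr (0.35, adjusted p = 0.0169), Top2a (0.29, adjusted p = 0.0186) and Anln (0.26, adjusted p = 0.0213) followed, and Cdk1, Ttk, Aurkb and Bub1 completed the 18. Aurkb alone of these had libraries that overlapped. Plk1 (0.18, adjusted p = 0.0767) and Ccnb1 (0.10, adjusted p = 0.465) were not called. Cdc25b had 62.4, 57.8 and 64.6 CPM at 8 h and 60.2, 52.7 and 53.7 CPM at 2 h (log2 0.15), also not called. The count of 18 was 9 without 2 h vehicle replicate 1, 10 without 8 h vehicle replicate 2 and 10 without the pair that stood apart. Nusap1, Ect2, Bub1b, Ube2c, Kif2c, Kif11, Ndc80 and Tpx2 were called with any single library left out. Ccna2, Hmmr, Kif20a, Top2a, Cdk1, Anln, Bub1 and Ttk lost the call without 2 h vehicle replicate 1 or 8 h vehicle replicate 2, Dlgap5 without 2 h vehicle replicate 1, and Aurkb without 2 h vehicle replicate 2 or 3 or 8 h vehicle replicate 1 or 3. Cdk1 also lost it without 2 h vehicle replicate 3, Anln without 8 h vehicle replicate 1, and Bub1 and Ttk without 2 h vehicle replicate 2.

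Over the 6 comparisons with vehicle, which share control libraries within a time, 16 members were called in none, 10 in 1, 10 in 2 and 3 in 3 (Ccna2, Dlgap5 and Cdca8). Cdc20 and Incenp were called in 4, and Plk1 in 5, the exception being the libraries labelled LPA at 2 h. Every call was in the lower direction. How many of all tested genes were called in as many comparisons was not computed. Foxm1, the only transcription factor on the list, was called in none. It had 155, 158 and 141 CPM in libraries labelled 1,25D, 131, 111 and 124 CPM in libraries labelled LPA, 159, 133.5 and 124 CPM with both agents and 169, 134 and 126 CPM in vehicle at 2 h. At 8 h vehicle had 140.4, 85.5 and 156 CPM, and replicate 2 was low.

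Other genes with roles in G2 and mitosis were also called mostly lower at 2 h. Of 66 other G2 and M genes, 23 were called lower and 1 higher in libraries labelled 1,25D at 2 h (median log2 -0.19), and 19 lower and 3 higher with both agents (median -0.15), where 6.85% of all tested genes were lower with the label 1,25D and 19.9% were called in either direction with both agents. Kifc1, a minus-end kinesin that focuses spindle poles, changed by -0.72, adjusted p = 3.66e-08 in libraries labelled 1,25D and by -0.88, adjusted p = 1.08e-09 with both agents. Kif18b, a plus-end kinesin, changed by -0.50, adjusted p = 6.19e-06 in libraries labelled 1,25D and by -0.81, adjusted p = 3.39e-09 with both agents. Cyclin F (Ccnf) changed by -0.40, adjusted p = 0.000166 with the label 1,25D, and Gtse1, a microtubule and p53 regulator, by -0.66, adjusted p = 1.79e-06 with both agents. In libraries labelled LPA at 2 h, 3 of the 66 were called lower, namely Kif18b (-0.30, adjusted p = 0.016), Kifc1 (-0.30, adjusted p = 0.0213) and Iqgap3 (-0.34, adjusted p = 0.0281), and 0 higher. At 8 h, 16 were called lower and 0 higher in libraries labelled 1,25D, 5 lower and 1 higher in libraries labelled LPA and 13 lower and 1 higher with both agents. Over all tested genes 8.32% were lower with the label 1,25D, 5.38% with the label LPA and 7.25% with both agents, so the 5 of 66 were near the background. The subunit Ncapd2 (-0.45, adjusted p = 3.53e-06) led in libraries labelled 1,25D. In vehicle at 8 h against 2 h, 17 were called higher and 1 lower, where 5.88% of all tested genes were higher and 8.69% lower.

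Counting both directions, DNA replication genes were called no more often than all genes at 2 h with the label 1,25D or both agents. Of 40, 2 were called lower and 0 higher in libraries labelled 1,25D (median -0.03), and 5 lower and 2 higher with both agents (median 0.03). Over all tested genes 6.85% were lower and 7.06% higher with the label 1,25D, and 19.9% were called in either direction with both agents. The polymerase subunit Pola2 (-0.20, adjusted p = 0.0235) and Uhrf1 (-0.24, adjusted p = 0.0244), which helps to maintain DNA methylation, were the members called with the label 1,25D. At 8 h in libraries labelled 1,25D, 9 were called lower (median -0.16), where 8.32% of all tested genes were. The ligase Lig1 (-0.41, adjusted p = 0.00054) led these. In vehicle at 8 h against 2 h, 5 were called higher and 2 lower, where 5.88% of all tested genes were higher and 8.69% lower. The thymidine kinase Tk1 (0.70, adjusted p = 2.09e-06) led those called higher. Of 16 subunits and E2 enzymes of the anaphase-promoting complex, 2 were called lower in libraries labelled 1,25D (Cdc23 at -0.34 and Anapc2 at -0.26) and 3 with both agents at 2 h. Over all 16424 tested genes, 6.85% were lower with the label 1,25D and 1644 genes were lower with both agents. Cdc23 shares transcript sequence with the member Kif20a on the opposite strand, as given below, so its value is less certain.

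**Figure D5:**
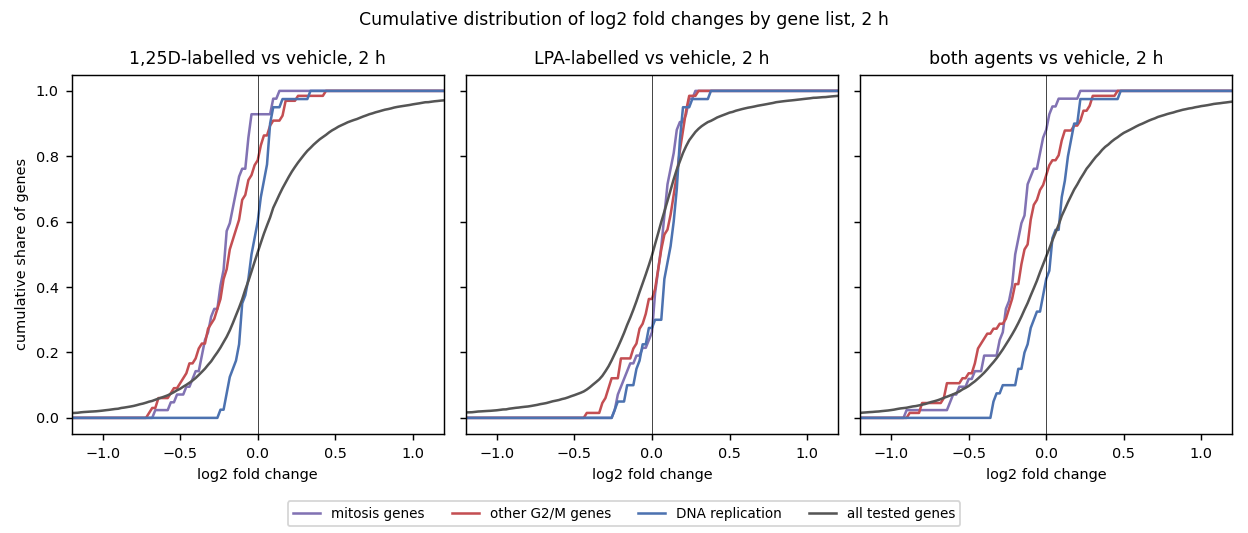
Cumulative share of genes by log2 fold change against vehicle at 2 h, for the mitosis genes, 66 other G2 and M genes, 40 DNA replication genes and all 16424 tested genes, in libraries labelled 1,25D, libraries labelled LPA and libraries with both agents. The mitosis curve lies left of all tested genes with the label 1,25D (median -0.21) and with both agents (median -0.20), and slightly right of it with the label LPA (median 0.05).

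Transcription factors known to act on such promoters were called at a share near that of all genes at 2 h. Of 22 tested MuvB, DREAM and cell-cycle transcription factors, 2 were called lower and 0 higher in libraries labelled 1,25D, against 6.85% lower over all tested genes. These were the MuvB subunit Lin37 (-0.54, adjusted p = 0.00041) and the p130 gene Rbl2 (-0.33, adjusted p = 0.00613). With both agents 3 were lower, Lin37 (-0.61, adjusted p = 7.91e-05), Rbl2 (-0.43, adjusted p = 0.000391) and Lin52 (-0.31, adjusted p = 0.0376), and 3 higher, against 19.9% of all tested genes in either direction. B-Myb (Mybl2) had log2 changes of 0.02 in libraries labelled 1,25D, -0.19 in libraries labelled LPA and -0.03 with both agents. E2f1 had 0.15 in libraries labelled 1,25D, -0.18 in libraries labelled LPA and 0.13 with both agents. The MuvB core subunit Lin9 had 0.05 in libraries labelled 1,25D, 0.18 in libraries labelled LPA and 0.09 with both agents. None of these 9 values was called.

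Among p53 targets and inhibitors of cyclin-dependent kinases, the larger part of the calls at 2 h was upward. Of 21 tested, 10 were called higher and 3 lower in libraries labelled 1,25D (median 0.22), where 7.06% of all tested genes were higher. In libraries labelled LPA 4 were called higher and 0 lower, where 0.597% of all tested genes were higher. With both agents 10 were called higher and 2 lower, where 1623 of the 16424 tested genes were higher and 1644 lower. The antiproliferative gene Btg2 changed by 2.33, adjusted p = 1.12e-13 and the polo-like kinase Plk2, a stress-responsive relative of Plk1, by 1.22, adjusted p = 1.33e-11 in libraries labelled 1,25D. Sesn1 (-0.76), the INK4 inhibitor Cdkn2d (-0.50) and p27 (Cdkn1b, -0.30) were the ones called lower. Several of these genes, such as Btg2 and Plk2, are also immediate responders to growth factors.

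Cdkn1a, the p21 gene, had 122, 128 and 131 CPM in libraries labelled 1,25D, 56.4, 55.1 and 61.1 CPM in libraries labelled LPA, 115, 97.1 and 125 CPM with both agents and 59.8, 55.3 and 53.6 CPM in vehicle at 2 h. The libraries labelled 1,25D and those with both agents were all above vehicle and the libraries labelled LPA overlapped with it, with log2 changes of 1.18, adjusted p = 3.15e-08 in libraries labelled 1,25D and 1.00, adjusted p = 2.90e-07 with both agents. At 8 h Cdkn1a was still higher in libraries labelled 1,25D (0.77, adjusted p = 2.25e-05) and with both agents (0.67, adjusted p = 5.31e-05), and lower in libraries labelled LPA (-0.44, adjusted p = 0.00636). Whether these changes are linked to the mitosis genes was not tested.

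Myc, a driver of growth, had 147, 151 and 145 CPM in libraries labelled 1,25D, 64.5, 52.9 and 57.5 CPM in libraries labelled LPA, 152, 141 and 131 CPM with both agents and 68.3, 59.6 and 58.4 CPM in vehicle at 2 h. It was higher in libraries labelled 1,25D (1.25, adjusted p = 2.07e-05) and with both agents (1.19, adjusted p = 2.62e-05), the same groups in which Plk1 was lowest. Cyclin D1 (Ccnd1) changed by -0.23, adjusted p = 0.0342 with both agents at 2 h and by 0.46, adjusted p = 0.00024 in libraries labelled 1,25D at 8 h. Wee1, the kinase that holds Cdk1 inactive, changed by 0.08 in libraries labelled 1,25D and 0.22 with both agents at 2 h, neither called, and by 0.57, adjusted p = 0.022 in libraries labelled LPA at 8 h. Of 10 tested G1 cyclins and growth-factor entry genes, 1 was called higher and 0 lower in libraries labelled 1,25D at 2 h and 3 higher and 1 lower with both agents. Over all tested genes 7.06% were higher with the label 1,25D and 19.9% were called in either direction with both agents. The 1 of 10 was near the background.

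Some members carry limits of measurement. For Plk1, 1 transcript held 99.1 to 99.9% of the gene's TPM in every group, and for Cdc20 96.1 to 98.5%, whereas the leading transcript held 44.5 to 54.4% for Cdc25b and 21.4 to 60.9% for Pttg1. Some members share transcript sequence with another gene on the opposite strand, and the sources used here do not say whether counting used strand. That gene held counts worth 63.4% of the member's for Kif4 (Pdzd11), 24.8% for Kif20a (Cdc23), 23.96% for Cdca8 (9930104L06Rik), 13.7% for Ndc80 (Gm1976) and 9.23% for Ccna2 (Exosc9). Ndc80 also shares sequence with 2700099C18Rik on its own strand, which held counts worth 20.8% of its own. These members are therefore less certain than Plk1, Cdc20, Cdc25b or Kif2c.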

How the data were processed

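RNA was sequenced from 24 Ocy454 libraries, with an RNeasy extraction and a DNBSEQ library kit, per the labels' protocols. The authors deposited estimated counts per transcript, not scaled between libraries, and TPM, scaled by the authors for transcript length and library depth, per the file headers. The genome build was mm39, per the submitters' processing notes. The sources used here do not name the quantifier. Gene names came from GENCODE M21 (GRCm38, names only), which matched 135078 of 139145 transcripts with 99.45 to 99.60% of a library's counts, and the rest were set aside. Summing and rounding gave whole counts for 49172 genes. Replicate libraries were not duplicates, since their counts differed beyond sampling noise, with a chi-square of 6.54 to 118.4 per degree of freedom.

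The test was edgeR 4.0.16 (R 4.3.3) with its robust quasi-likelihood F test, TMM scaling and filterByExpr at a minimum count of 10. All 8 groups entered 1 fit, with 16 residual degrees of freedom and a biological coefficient of variation of 0.131 in common. P-values are two-sided and were adjusted by Benjamini and Hochberg's method over the 16424 tested genes, with a threshold of 0.05. Fold changes are log2 with SE, and 16 comparisons were made. The procedure was tested on simulated data with changes set only between both agents and vehicle at 2 h. The simulation held no libraries that stood apart, so it does not cover the 8 h comparisons. Groups follow the sample titles. Members and gene lists were chosen with earlier results of these data known. Library values are printed for Plk1, Cdc20, Ccnb1, Top2a and Mki67. In each comparison with vehicle, and in vehicle over time, they are also printed for up to 4 called members with the smallest p, and fold changes for up to 10 more. Other lists give up to 3 called genes per direction, beside 8 regulators. Members outside that rule were named after their values were seen. Alternatives were median-of-ratios scaling, no filter, DESeq2 1.42.0, the compared groups alone, a replicate block, length-scaled TPM counts and leaving out each library. Leaving out the pair of 8 h libraries that stood apart was chosen after seeing the data.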

Additional observations from a re-analysis of the deposited data

Results flagged for a closer look

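In 12 cases a test of a difference between treatment effects passed an adjusted p of 0.05 by edgeR's quasi-likelihood test. All values are differences of log2 changes. With both agents, the change at 8 h minus the change at 2 h was 0.67 for Cdc25b, 0.60 for Plk1, 0.57 for Kif2c, 0.47 for Aurka, 0.38 for Cdc20, 0.34 for Bub1b and 0.23 for Incenp, and each of these genes was called lower with both agents at 2 h. For the libraries labelled 1,25D the same difference was 0.54 for Cdc25b and 0.37 for Plk1. For the libraries labelled LPA it was -0.45 for Nusap1 and -0.40 for Mad2l1, and neither gene was called against vehicle at either time. The interaction of the agents at 8 h was 0.43 for Dlgap5. All of these contrasts at 8 h use the vehicle group that holds a library standing apart from the others. Leaving out that library and its partner among those with both agents left Cdc25b, Plk1, Kif2c and Aurka called with both agents, both genes called with the label 1,25D, and Nusap1 with the label LPA.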

How the results depend on the processing

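The 108 called values of members were recomputed under 1420 alternatives: 1110 stayed past the threshold, 310 did not and 0 changed sign. In the counts of called members that follow, the cause of a change was not tested. With no filter on low counts (more genes tested), the count was 12 for the label 1,25D at 2 h, 2 for the label LPA at 8 h, 1 for both agents against the label 1,25D at 8 h, 4 for the interaction at 8 h, and 1, 4 and 4 for the time differences of the label 1,25D, the label LPA and both agents. By DESeq2 it was 2 for the label LPA at 2 h, 1 for both agents against the label 1,25D at each time, 10 for the label LPA at 8 h, 14 for the interaction at 8 h and 7 for the time difference of the label LPA. With the compared groups alone (fewer samples) it was 0 for the label LPA at 8 h, 2 for both agents at 8 h, 1 for both agents against the label LPA at 8 h, 0 for the interaction at 8 h, 4 for vehicle over time, and 1, 0 and 3 for the time differences of the label 1,25D, the label LPA and both agents. With counts from length-scaled TPM it was 0 for the interaction at 8 h, and 1 and 3 for the time differences of the label 1,25D and of both agents. Without the pair of 8 h libraries that stood apart it was 1 for the label LPA at 8 h, 0 for the interaction, 10 for vehicle over time, and 1 and 4 for the time differences of the label LPA and of both agents. Median-of-ratios scaling changed no count by over 1.5 times.

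Leaving out 1 library gave 11 to 21 for the label 1,25D, 0 to 0 for the label LPA and 12 to 20 for both agents at 2 h, 0 to 1 for both agents against the label 1,25D and 16 to 22 against the label LPA, and 0 to 0 for the interaction. At 8 h it gave 7 to 15 for the label 1,25D, 0 to 15 for the label LPA, 3 to 10 for both agents, 0 to 1 for both agents against the label 1,25D, 1 to 5 against the label LPA and 0 to 19 for the interaction. It gave 9 to 19 for vehicle over time, and 1 to 2, 0 to 12 and 3 to 6 for the time differences of the label 1,25D, the label LPA and both agents.

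In CPM, the summed level relative to vehicle was 87.4% for the label 1,25D, 102% for the label LPA and 87.8% for both agents at 2 h, 90.6% for the label LPA and 91.7% for both agents at 8 h, and 116% for vehicle at 8 h relative to 2 h.

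Replicate numbers did not pair the libraries throughout: deviations of same-numbered libraries correlated at -0.25 to 0.36. The highest values were those of both agents and vehicle at 8 h, at 0.36 in replicate 2 and 0.25 in replicate 3, against 0.07 in replicate 1. Whether same-numbered libraries of these groups were handled together was not tested. With the replicate number as a block, 17 members were called for the label 1,25D and 15 for both agents at 2 h, 10, 3 and 4 at 8 h for the label 1,25D, the label LPA and both agents, and 17 for vehicle over time, and no count moved by over 1.5 times. Counts were high in every library, so the spread between 3 libraries, and not depth, limits these comparisons.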
